A study of Rattus norvegicus with 20 samples.

Results

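Adipocyte genes were examined in gastrocnemius muscle, a fast limb muscle, of tumour-bearing rats. The 10 members were chosen by name: Adipoq, Cfd, Lep, Retn, Plin1, Cidec, Lipe, Pnpla2, Fabp4 and Pparg. Each had exactly 1 row among the 32495 named gene rows of the count table. All rats were female Fischer 344 rats carrying the Ward colorectal carcinoma implanted before treatment, and the labels name no genetic change. TUMOUR STD rats received no chemotherapy and ate the standard diet. CHEMO STD rats received repeated cycles of irinotecan (CPT-11) followed by 5-fluorouracil (5-FU) on the standard diet. CHEMO FO rats received the same drugs on an isocaloric diet containing fish oil (EPA + DHA), started with chemotherapy. No group without a tumour was analysed here, so every comparison is within the tumour-bearing state. RNA was extracted from a small piece of each muscle, and the libraries were rRNA-depleted and stranded.

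Adipocytes store triacylglycerol in a lipid droplet and secrete hormones, and in muscle they lie between the fibres and around the vessels and nerves, within a tissue made mostly of muscle fibres. Pparg encodes the nuclear receptor that drives adipocyte differentiation. The fat cell it gives rise to coats its droplet with perilipin 1 (Plin1) and enlarges it with Cidec, breaks triacylglycerol down with the lipases Pnpla2 (ATGL) and Lipe (HSL), carries fatty acids with Fabp4, and secretes adiponectin (Adipoq), leptin (Lep), adipsin (Cfd) and resistin (Retn). Fat infiltration of muscle during chemotherapy has been a question in this tumour model. Several of the members are also used outside fat: Fabp4 by capillary endothelium and macrophages, and Lipe by muscle fibres.

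The table held 5 TUMOUR STD, 7 CHEMO STD and 8 CHEMO FO libraries, with 3020821 to 10857477 counts each. CHEMO STD libraries 1 and 2 were closer to each other than any other pair within a group. Their median chi-square per gene was 0.93, against 2.00 to 39.0 for the other 58 pairs and 0.455 for sampling noise alone. They were summed and counted as 1 sample, written CHEMO STD 1+2, which gave 5, 6 and 8 samples. All samples expressed fast muscle markers: 6 fast fibre genes, among them fast myosin Myh4 and muscle creatine kinase Ckm, summed to 120437 to 240430 CPM (counts scaled to a common library size). The lowest of these sums was in CHEMO FO 18, which also had the highest macrophage sum, 609 CPM. A few samples carried markers of other tissues. TUMOUR STD 10 had 572 CPM over 10 keratinocyte genes and CHEMO FO 16 had 126 CPM, against at most 7.65 CPM in every other sample. CHEMO STD 7 had 62.7 CPM over 6 lymphocyte genes, against at most 4.27 CPM elsewhere. The nerve sheath genes Mbp and Prx stood apart in TUMOUR STD 10 (51.1 and 40.7 CPM), CHEMO STD 1+2 (62.8 and 32.7 CPM) and CHEMO STD 7 (38.9 and 23.4 CPM), against at most 19.6 and 14.6 CPM elsewhere. These 3 samples were also among the higher ones for Adipoq and most other members. Exceptions were Fabp4 in TUMOUR STD 10 and CHEMO STD 1+2, and Pnpla2 in all 3. The part of the nerve genes in those values was not tested. In bulk muscle, a lower level of an adipocyte gene can come from fewer adipocytes or from less RNA per adipocyte, and these cannot be told apart. Each sample is taken as 1 rat, but the labels name no animal, so p values measure the spread between these samples, which may in part be technical.

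The promoter windows of 4 members whose levels rose and fell together between rats are given below, because the results turn on these genes. Each runs 5′ to 3′ along the strand of its gene, from 250 bases before to 50 bases after the annotated start (RefSeq, build GRCr8). Capitals mark the core bound by C/EBP factors, TTGCNNAA. The windows lie at chr11:91240120-91240419 (minus strand, Adipoq), chr1:143086099-143086398 (minus strand, Plin1), chr4:148137066-148137365 (minus strand, Cidec) and chr4:58626288-58626587 (plus strand, Lep).
Adipoq: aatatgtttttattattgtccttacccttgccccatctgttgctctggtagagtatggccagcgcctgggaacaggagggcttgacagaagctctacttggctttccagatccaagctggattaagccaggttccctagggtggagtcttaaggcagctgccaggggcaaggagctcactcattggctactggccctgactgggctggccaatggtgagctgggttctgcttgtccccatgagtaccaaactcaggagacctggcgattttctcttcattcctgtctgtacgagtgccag
Plin1: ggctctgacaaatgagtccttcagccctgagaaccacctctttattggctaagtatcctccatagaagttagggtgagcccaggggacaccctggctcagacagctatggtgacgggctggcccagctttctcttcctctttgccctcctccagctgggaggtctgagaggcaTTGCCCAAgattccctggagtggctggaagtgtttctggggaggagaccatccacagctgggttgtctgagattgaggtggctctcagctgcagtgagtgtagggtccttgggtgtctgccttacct
Cidec: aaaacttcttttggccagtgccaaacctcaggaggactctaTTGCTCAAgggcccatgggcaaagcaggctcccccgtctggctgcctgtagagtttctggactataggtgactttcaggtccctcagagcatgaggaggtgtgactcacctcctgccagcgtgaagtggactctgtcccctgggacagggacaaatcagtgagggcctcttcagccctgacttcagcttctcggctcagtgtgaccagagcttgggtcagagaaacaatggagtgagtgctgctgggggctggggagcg
Lep: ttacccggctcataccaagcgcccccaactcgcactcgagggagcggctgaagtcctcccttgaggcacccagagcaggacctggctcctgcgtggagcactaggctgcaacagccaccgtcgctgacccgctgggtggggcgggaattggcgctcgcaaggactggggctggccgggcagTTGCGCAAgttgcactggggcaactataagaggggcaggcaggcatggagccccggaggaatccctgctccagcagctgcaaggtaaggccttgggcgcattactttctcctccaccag
Counted from the start, the core began at position -77 in Plin1, -209 in Cidec and -69 in Lep, where it matched on both strands. These letters were not in the Adipoq window. Over all 33469 windows of the table, 10.6% held this core on either strand. Windows were given for 8 of the 10 members, and Pparg had 2. Beyond the windows shown, 1 of the 2 Pparg windows held the C/EBP core, at position -174, and the other held the TATA box TATAAA (14.2% of all windows) on its minus strand. The motif AGGTCA of nuclear receptors (16.2% of all windows) occurred in the Retn window at positions -169 and -7. The windows of Cfd and Pnpla2 held none of the 3 motifs. A match is a run of letters and was not measured as a bound site here.

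Of the 10 members, 9 passed the filter on low counts. All levels below are CPM on TMM-scaled library sizes, which correct for differences in composition between libraries. CPM are not corrected for gene length, so the levels of different genes are not comparable as amounts of transcript.

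**Figure D1:**
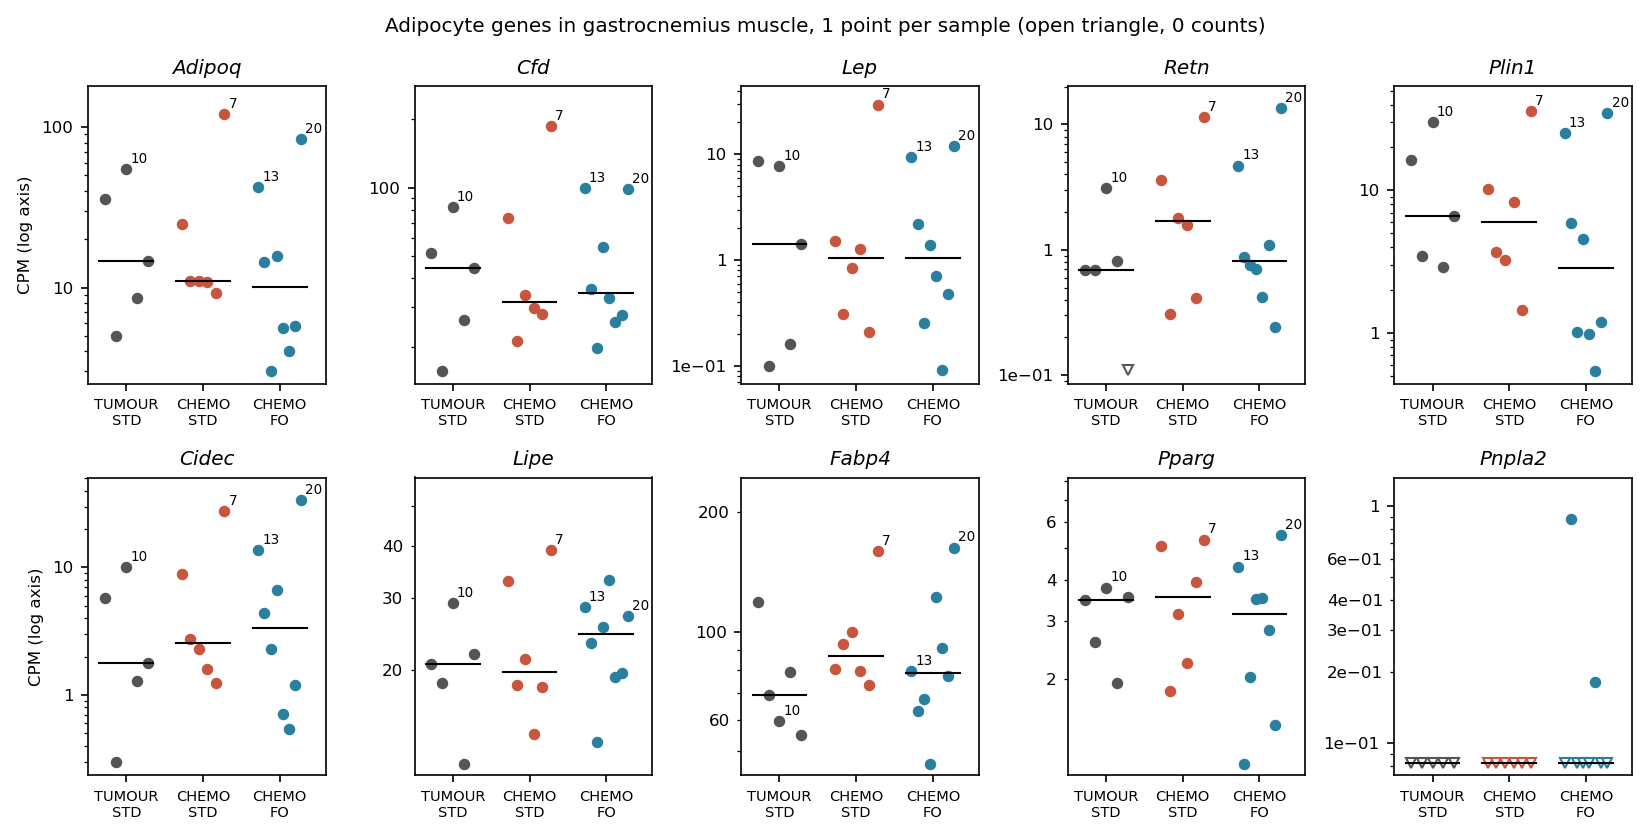
Level of each adipocyte gene in CPM (log axis) in TUMOUR STD, CHEMO STD and CHEMO FO, 1 point per sample with the median of the group as a bar and samples at 0 counts as open triangles at the lower edge. Replicates 10, 7, 13 and 20 are numbered: CHEMO STD 7 was the highest CHEMO STD sample in each panel except that of Pnpla2, and the groups overlap in every panel.

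Among the secreted products, adiponectin was detected in every library. Adipoq was at 35.8, 4.97, 54.9, 8.57 and 14.5 CPM in TUMOUR STD 8 to 12, with a median of 14.5 CPM. In CHEMO STD it ran from 9.31 CPM through a median of 11.0 CPM to 120.2 CPM, and in CHEMO FO from 3.03 through 10.1 to 84.2 CPM. The high samples were TUMOUR STD 8 and 10, CHEMO STD 7, and CHEMO FO 13 (42.5 CPM) and 20, so each group held both high and low rats and the 3 ranges overlapped. In CHEMO STD, 4 of the 6 samples lay between 9.31 and 11.0 CPM, and only CHEMO STD 1+2 (24.8 CPM) and 7 rose above them.

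Leptin had the widest spread of all. Lep was at 8.69, 0.0995, 7.67, 0.162 and 1.42 CPM in TUMOUR STD 8 to 12, where the lowest value rested on 1 count. It ran from 0.207 through a median of 1.06 to 29.5 CPM in CHEMO STD, and from 0.0909 through 1.05 to 12.0 CPM in CHEMO FO. The highest sample exceeded the lowest of its group 87.3-fold in TUMOUR STD, 143-fold in CHEMO STD and 132-fold in CHEMO FO, ratios whose lower end in each group is a single count.

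Adipsin, a complement protease that fat secretes, was at 15.6 CPM or more in every sample. Cfd was at 51.9, 15.6, 82.0, 26.2 and 44.4 CPM in TUMOUR STD, at 21.1 to 187 CPM (median 31.6) in CHEMO STD and at 19.7 to 100.1 CPM (median 34.3) in CHEMO FO. Its highest sample exceeded its lowest by 5.25-fold, 8.86-fold and 5.08-fold in the 3 groups. Resistin, a small peptide hormone of rodent fat, was detected in all samples except TUMOUR STD 12. Retn was at 0.695, 0.696, 3.11, 0.809 and 0 CPM in TUMOUR STD, at 0.306 to 11.4 CPM (median 1.69) in CHEMO STD and at 0.24 to 13.5 CPM (median 0.819) in CHEMO FO. The same rats as for Adipoq stood out: TUMOUR STD 10, CHEMO STD 7 and CHEMO FO 20 held the highest Retn of their groups.

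The lipid droplet proteins followed the hormones. Plin1 was at 16.3, 3.48, 30.1, 2.91 and 6.56 CPM in TUMOUR STD, ran from 1.45 through 5.97 to 36.0 CPM in CHEMO STD, and from 0.545 through 2.87 to 34.9 CPM in CHEMO FO. In CHEMO FO, 4 of the 8 samples (CHEMO FO 15, 17, 18 and 19) were below the lowest TUMOUR STD sample, and CHEMO FO 13, 14, 16 and 20 were above it. Cidec was at 5.73, 0.298, 10.0, 1.29 and 1.77 CPM in TUMOUR STD, ran from 1.24 through 2.53 to 27.7 CPM in CHEMO STD, and from 0.545 through 3.34 to 33.8 CPM in CHEMO FO. For both genes the highest sample was TUMOUR STD 10, CHEMO STD 7 and CHEMO FO 20.

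Of the lipases, Lipe had counts in every sample and the Pnpla2 row was near 0. Lipe was at 20.7, 18.6, 29.1, 11.8 and 21.8 CPM in TUMOUR STD, at 13.99 to 39.1 CPM (median 19.8) in CHEMO STD and at 13.4 to 33.1 CPM (median 24.4) in CHEMO FO, so that no group spanned as much as 3-fold. Pnpla2 had 6 counts in all, 4 in CHEMO FO 14 and 2 in CHEMO FO 18, and was listed at 0 in the other 18 libraries. At these depths a count of 0 allows a level of up to 0.276 to 0.993 CPM, covering counting error only. This limit holds for reads assigned to the Pnpla2 row: how overlapping or multi-mapping reads were counted is not stated, and whether the row captures the transcripts of the gene was not tested. The activator of ATGL, Abhd5, was at 16.8 to 37.6 CPM, and its inhibitor G0s2 at 3.18 to 185 CPM, in the same libraries. Pnpla2 was below the filter and was not tested in the fit.

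The fatty acid carrier and the receptor spanned narrower ranges than Adipoq, Lep, Plin1 and Cidec, 1.95-fold to 4.98-fold within a group. Fabp4 was at 119, 69.4, 59.6, 78.9 and 54.8 CPM in TUMOUR STD, at 73.4 to 159 CPM (median 86.7) in CHEMO STD and at 46.4 to 163 CPM (median 78.5) in CHEMO FO. Its highest samples included CHEMO STD 7 and CHEMO FO 20, but TUMOUR STD 10, the rat with the most Adipoq in its group, had one of the lower Fabp4 levels. Pparg was at 3.47, 2.59, 3.79, 1.94 and 3.55 CPM in TUMOUR STD, at 1.84 to 5.31 CPM (median 3.54) in CHEMO STD and at 1.10 to 5.48 CPM (median 3.15) in CHEMO FO.

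The chemotherapy effect was assessed as CHEMO STD versus TUMOUR STD. None of the 9 members tested was called, meaning an unadjusted p below 0.05 together with a fold of 1.5 or more, by edgeR's quasi-likelihood test, by DESeq2 or by limma voom, and none had an unadjusted p below 0.05 in edgeR. Of all 11716 genes tested, 2.38% were called. A total of 8 members were fitted higher in CHEMO STD and 1 lower, with a median log2 fold change of 0.39 against 0.00 over all genes. The largest was that of Retn, 1.498 on the log2 scale (SE 0.95, 95% interval -0.48 to 3.47, edgeR adjusted p = 0.724). Adipoq differed by 0.39 (SE 0.81, interval -1.28 to 2.07), Cidec by 0.96 (SE 0.95), Lep by 0.62 (SE 1.10), Cfd by 0.51 (SE 0.53) and Plin1 by -0.19 (SE 0.88). Fabp4 (0.35, SE 0.27), Pparg (0.28, SE 0.35) and Lipe (0.25, SE 0.26) were more closely bounded, with intervals that reached at most 1.01. The exact permutation test of the mean log2 CPM gave two-sided p values of 0.201 or more for each of the 9 members tested in the fit. The smallest p that 5 against 6 samples allow is 0.00216. Pnpla2 was at 0 in all of these samples, so this test could show no difference for it. Without TUMOUR STD 8, Fabp4 alone had an exact permutation p below 0.05 (difference 0.53 on the log2 scale, p = 0.0286).

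One rat decided the direction of several of these values. Without CHEMO STD 7, the log2 fold change of Adipoq was -0.78, that of Lep -1.93, that of Cfd -0.21 and that of Cidec -0.03. Plin1 moved to -1.10 without it and to 0.55 without TUMOUR STD 10. Retn passed the call only without TUMOUR STD 10, with a log2 fold change of 2.49 (edgeR adjusted p = 0.999). CHEMO STD 7 also held the lymphocyte genes named above (Cd79b, a B cell receptor chain, at 21.4 CPM and at most 0.347 CPM elsewhere) and 392 CPM over the 7 macrophage genes, the highest of CHEMO STD. Of that sum, 170 CPM were Lyz2, which was at 45.9 to 68.6 CPM in the other CHEMO STD samples. Cd68 was also highest in CHEMO STD 7, whereas Csf1r, Cd163, Mrc1, C1qa and Adgre1 were highest in CHEMO STD 1+2. The part of these markers in the adipocyte values was not tested.

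The diet effect was assessed as CHEMO FO versus CHEMO STD. Again none of the 9 members was called by edgeR, DESeq2 or limma voom, and none had an unadjusted p below 0.05 in edgeR, where 1.66% of all genes tested were called. A total of 8 members were fitted lower in CHEMO FO and 1 higher, with a median log2 fold change of -0.17 against -0.01 over all genes. Adipoq differed by -0.50 (SE 0.73, interval -2.02 to 1.01, edgeR adjusted p = 0.975) and Lep by -0.74 (SE 1.01, interval -2.83 to 1.36). Cfd differed by -0.34 (SE 0.47), Pparg by -0.28 (SE 0.32), Plin1 by -0.17 (SE 0.81), Retn by -0.16 (SE 0.79), Fabp4 by -0.13 (SE 0.24), Lipe by -0.03 (SE 0.23) and Cidec by 0.08 (SE 0.82). For Lipe and Fabp4 the intervals were -0.51 to 0.44 and -0.62 to 0.37. For Adipoq, Lep, Plin1, Cidec and Retn they admitted changes of more than 2-fold in either direction. Exact permutation p values were 0.446 or more, where 6 against 8 samples allow 0.000333. For Pnpla2, at 0 in most samples, the smallest exact permutation p possible was 0.165, so its test could not pass 0.05.

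The direction rested on CHEMO STD 7 here too. Without it, Adipoq was fitted at 0.67, Lep at 1.81, Plin1 at 0.74, Retn at 0.71, Cfd at 0.38, Lipe at 0.15 and Fabp4 at 0.07 on the log2 scale, in place of the negative values. Without CHEMO FO 20, Adipoq was at -1.34 and Cidec at -0.99. By limma voom with sample quality weights, Lep (0.71), Cfd (0.20) and Lipe (0.17) were positive as well.

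CHEMO FO was also set against TUMOUR STD, a comparison that shares its samples with both others. None of the 9 members was called by edgeR, DESeq2 or limma voom, and none had an unadjusted p below 0.05 in edgeR, against 3.6% of all genes called. Log2 fold changes were 1.34 for Retn (SE 0.92), 1.04 for Cidec (SE 0.90), -0.37 for Plin1 (SE 0.84), 0.23 for Fabp4 (SE 0.25), 0.21 for Lipe (SE 0.24), 0.16 for Cfd (SE 0.50), -0.12 for Lep (SE 1.08), -0.11 for Adipoq (SE 0.77) and 0.00 for Pparg (SE 0.34). Without CHEMO FO 20, Cidec was at -0.02 and Cfd at -0.06, and without TUMOUR STD 10, Plin1 was at 0.37, Adipoq at 0.49 and Lep at 0.43. Retn was called without TUMOUR STD 10 (2.33, edgeR adjusted p = 0.854). Exact permutation p values were 0.306 or more, where 5 against 8 samples allow 0.000777. That of Pnpla2 could not fall below 0.128, so its test could not pass 0.05. With no filter on low counts, Pnpla2 was called against either group by edgeR (log2 fold change 3.06 in both), on the 6 counts described above.

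**Figure D2:**
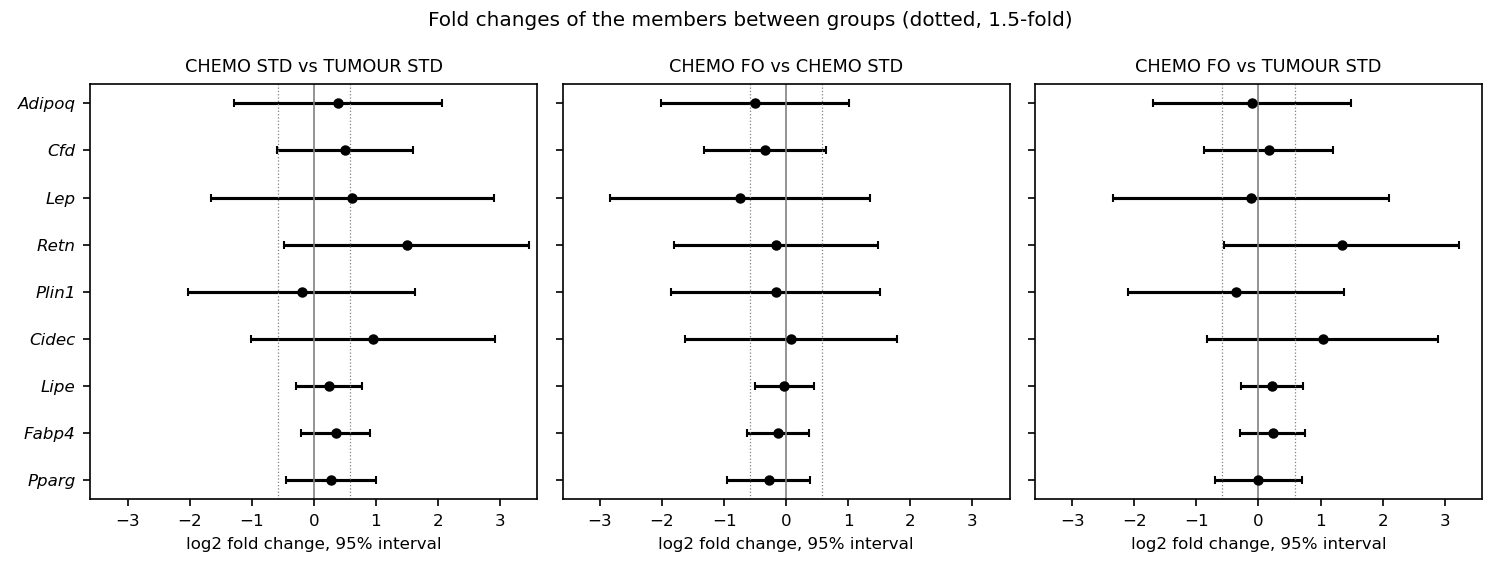
Log2 fold change of the 9 members tested in each comparison, with its 95% interval from the edgeR fit; dotted lines mark 1.5-fold. Every interval spans 0, and those of Lipe, Fabp4 and Pparg are narrower than those of the other 6 genes.

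The spread between rats was large for most members. The biological coefficient of variation, the relative SD between samples beyond counting noise, was 1.29 for Lep, 1.03 for Retn, 1.02 for Cidec, 1.00 for Plin1, 0.89 for Adipoq and 0.59 for Cfd. Genes of the same abundance had trend values of 0.33, 0.37, 0.29, 0.26, 0.23 and 0.22. The ratio of a gene's own value to this trend ranked Lep, Adipoq and Plin1 at places 7, 8 and 9 of all 11716 genes tested, Cidec at place 17, Retn at place 39 and Cfd at place 47. Fabp4 (0.31 against 0.23) and Lipe (0.29 against 0.23) lay closer to their trend, and Pparg (0.34 against 0.35) lay on it.

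Most members rose and fell together between rats of the same group. Once the mean of its group was removed from each log2 level, Adipoq correlated over the 19 samples with Lep (Pearson r = 0.96, Spearman rho = 0.93), Plin1 (0.95 and 0.93), Cidec (0.95 and 0.93) and Cfd (0.95 and 0.90). For these 4 genes both permutation p values were 1e-05, the smallest that 100000 permutations within groups can give (adjusted p = 4.75e-05 over the 19 relations computed). The coefficients held without the 2 samples farthest from the median of Adipoq, CHEMO STD 7 and CHEMO FO 20, at r of 0.92 to 0.94. Retn (r = 0.78, rho = 0.58), Lipe (r = 0.70, rho = 0.69) and Pparg (r = 0.62, rho = 0.59) followed less closely, with adjusted permutation p values for rho of 0.0353, 0.00433 and 0.042. Without the 2 samples their r was 0.59, 0.65 and 0.45. Fabp4 did not follow: its r of 0.41 (adjusted permutation p = 0.276) and rho of 0.15 became -0.08 and -0.19 without the 2 samples. Pnpla2, at 0 in 17 of the 19 samples, gave r of -0.04.

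**Figure D3:**
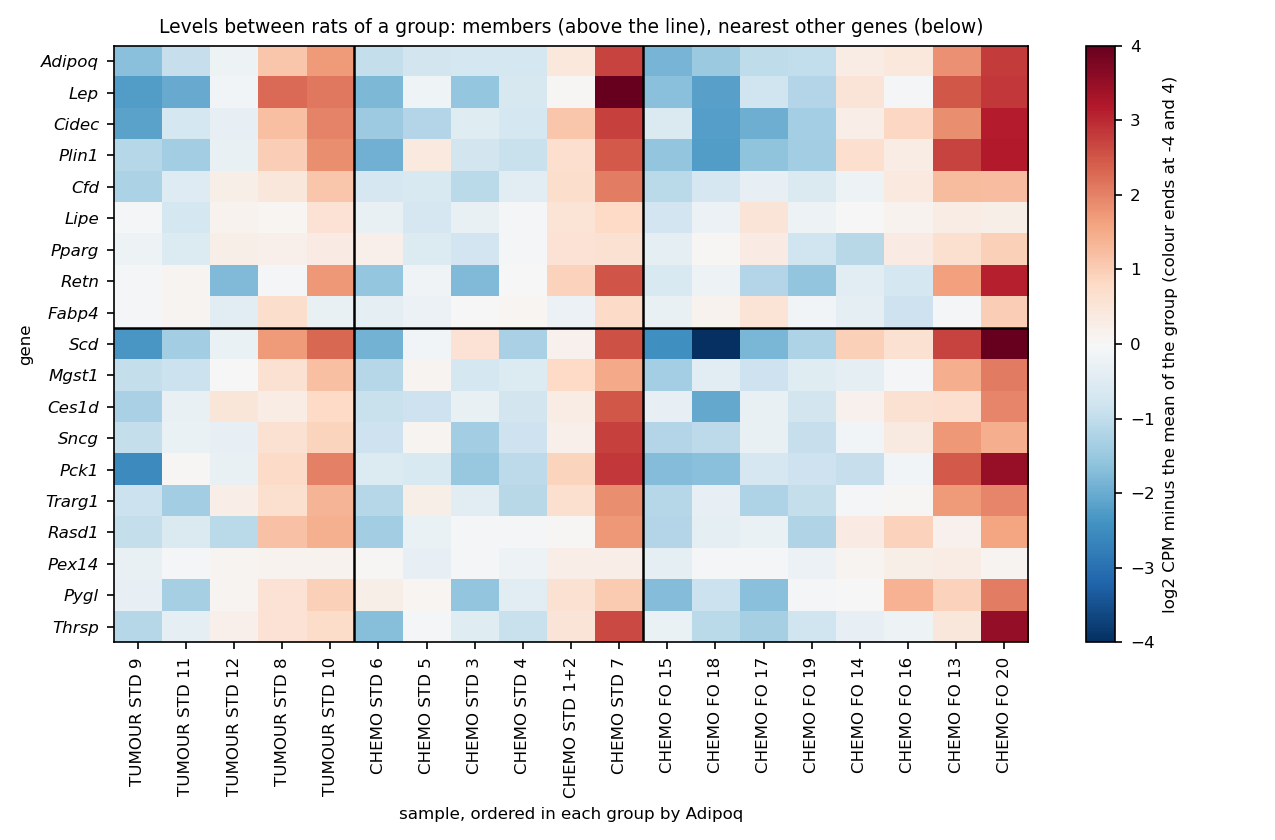
Log2 CPM of each gene minus the mean of its group, for the 9 members tested (above the line) and the 10 other genes most like Adipoq (below), with samples ordered in each group by Adipoq. TUMOUR STD 10, CHEMO STD 7, CHEMO FO 13 and CHEMO FO 20 are at or near the top of their groups for most genes, while Lipe, Pparg, Fabp4 and Pex14 stay close to 0.

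**Figure D4:**
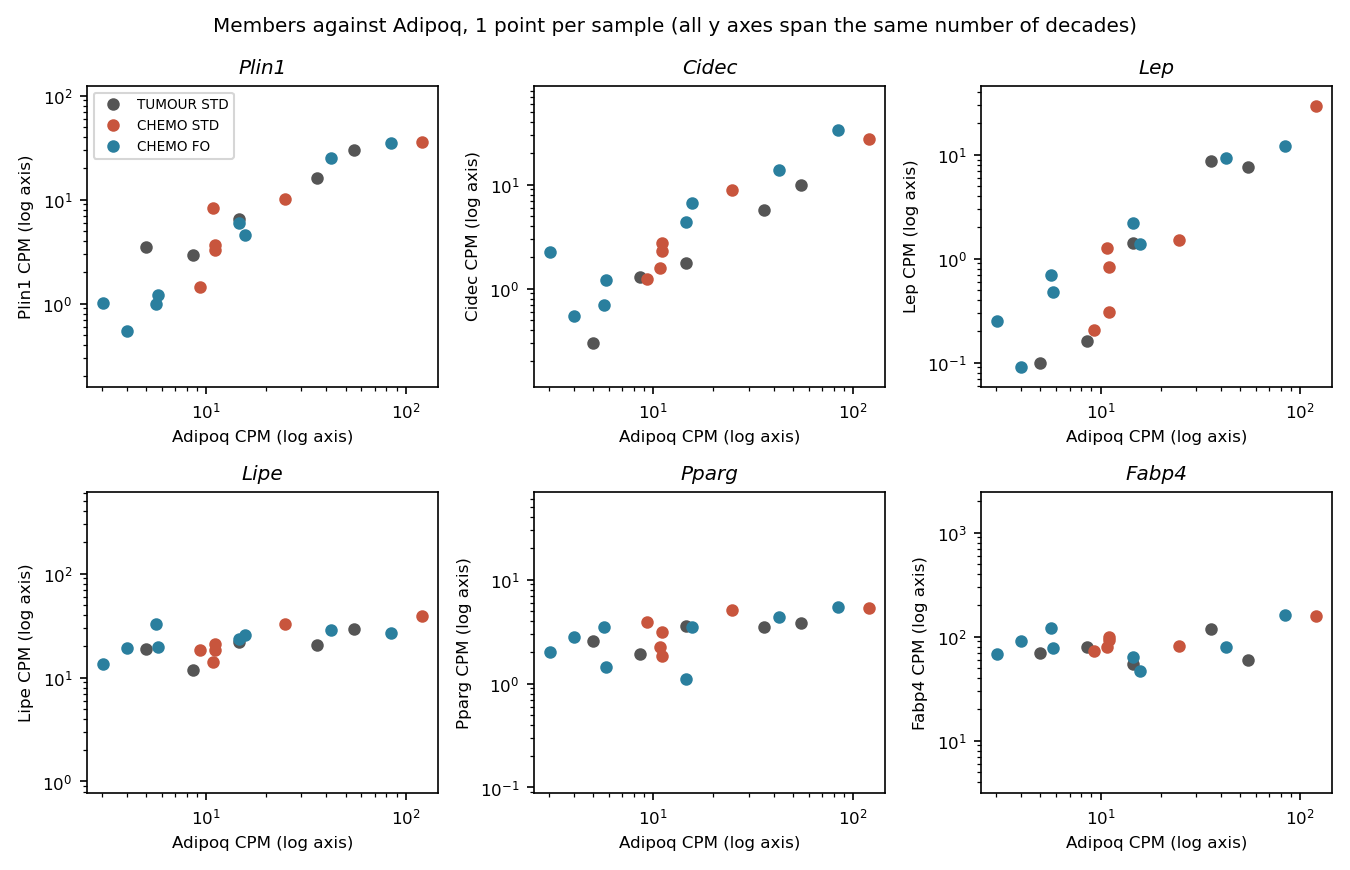
Level of 6 members against Adipoq in CPM (both axes log, all vertical axes of equal span), 1 point per sample, coloured by group. Plin1, Cidec and Lep climb with Adipoq in all 3 groups, whereas Lipe, Pparg and Fabp4 span a smaller part of their axes.

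Since Fabp4 and other members can come from endothelium, each member was also set against the summed CPM of 9 endothelial genes, which lay between 271 and 399 CPM in all samples. No correlation passed the adjusted threshold. The coefficients over the 19 samples were between -0.28 and 0.09 (Pearson) and between -0.20 and 0.12 (Spearman), with the lowest of both for Fabp4 (adjusted permutation p = 0.595 for r). With library totals in place of TMM sizes, rho turned negative for Adipoq (-0.27), Cidec (-0.26), Plin1 (-0.20), Lep (-0.20) and Cfd (-0.16). Without the 2 samples farthest from the median of the endothelial sum, TUMOUR STD 12 and CHEMO FO 20, values moved the other way for most members. There r was 0.20 for Adipoq, 0.24 for Cidec and 0.33 for Pparg, the highest, but -0.24 for Fabp4 and -0.29 for Pnpla2. Sums of other markers were set against Adipoq as a description. Over the 19 samples rho was 0.41 with the fast fibre genes, 0.24 with tendon genes, 0.22 with fibro-adipogenic progenitor genes, 0.16 with lymphocyte genes, 0.14 with keratinocyte genes, 0.03 with macrophage genes and -0.02 with the total counts of the library. Taken as single genes, the nerve sheath genes Mbp and Prx had a rho with Adipoq of 0.55 and 0.42. The fast fibre genes Ckm and Acta1, also as single genes, had 0.53 and 0.52. The part of the nerve sheath genes in the adipocyte values was not tested.

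A wider look at genes whose pattern resembled that of Adipoq found lipid synthesis and other fat genes. Among 11715 genes compared, 20 had a rho of at least 0.8 with Adipoq over the 19 samples, group means removed, where the median gene had 0.01. The first 5 were Scd and the members Lep, Cidec, Plin1 and Cfd. The 10 that are no member, in order, were Scd (stearoyl-CoA desaturase, rho = 0.95), Mgst1 (0.89), Ces1d (a carboxylesterase and lipase of fat, 0.89), Sncg (gamma synuclein, 0.86), Pck1 (PEPCK, which supplies glycerol phosphate in fat, 0.86), Trarg1 (a regulator of the glucose transporter GLUT4, 0.86), Rasd1 (0.85), Pex14 (peroxisome import, 0.84), Pygl (glycogen phosphorylase, 0.84) and Thrsp (spot 14, lipogenesis, 0.84). Scd ran from 9.15 to 234 CPM in TUMOUR STD, from 10.8 to 236 CPM in CHEMO STD and from 0.636 to 749 CPM in CHEMO FO, with CHEMO FO 20 highest and CHEMO FO 18 lowest. Pex14 kept within 14.6 to 24.0 CPM in all samples, so its high rho came with hardly any change in level.

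Of 25 further adipocyte genes, 24 had a row and 17 were tested. None was called in any of the 3 comparisons by edgeR and none had an unadjusted p below 0.05. DESeq2 called 1, Thrsp, lower in CHEMO FO than in CHEMO STD, and limma voom called Aqp7, a glycerol channel, higher in CHEMO FO than in either other group. The median log2 fold change of the 17 was -0.04 (8 higher) for CHEMO STD versus TUMOUR STD, -0.03 (7 higher) for CHEMO FO versus CHEMO STD and 0.13 (9 higher) for CHEMO FO versus TUMOUR STD, beside medians over all genes of 0.00, -0.01 and 0.00. Their rho with Adipoq had a median of 0.72, and 11 of the 17 reached 0.5, among them Fasn (fatty acid synthase, 0.82), Pde3b (0.79), Acaca (0.75) and Acvr1c (0.72). The 4 with the highest mean CPM were Gpd1 (0.26), Slc2a4 (GLUT4, 0.32), Acsl1 (-0.04) and Me1 (-0.32), genes that muscle fibres express as well. Without 1 library, Sncg was called lower after chemotherapy on the standard diet than without it (CHEMO STD 7 left out), and Pck1 and Thrsp lower in CHEMO FO than in CHEMO STD (CHEMO FO 20 left out).

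Lipid droplet and lipolysis genes that are not confined to fat were examined as a further list. The median rho of the 14 tested with Adipoq was 0.01, from -0.33 for Plin4 to 0.64 for Mgll. The 4 with the highest mean CPM were Lpl (lipoprotein lipase, 0.47), Fabp3 (the muscle fatty acid carrier, -0.25), Plin4 (-0.33) and G0s2 (0.03). None of them was called by edgeR for CHEMO STD versus TUMOUR STD or CHEMO FO versus CHEMO STD, where 0 and 1 had an unadjusted p below 0.05. Versus TUMOUR STD, 2 of the 14 were called higher in CHEMO FO, where 3.6% of all genes tested were called. Angptl4, a fasting-induced inhibitor of Lpl, had a log2 fold change of 1.54 (SE 0.67, edgeR adjusted p = 0.529). Its highest levels were 76.5 CPM in CHEMO FO 17, 43.7 CPM in CHEMO FO 18 and 16.3 CPM in CHEMO FO 19. CHEMO FO 13, 14, 15, 16 and 20 were at 4.39, 4.40, 1.52, 6.28 and 6.28 CPM. TUMOUR STD 8 to 12 were at 7.99, 9.15, 7.77, 1.94 and 8.52 CPM, so most CHEMO FO samples were not higher. Pnpla3, a lipase paralogue of Pnpla2 induced by lipogenic conditions, rose by 1.66 (SE 0.73, edgeR adjusted p = 0.524), with 17.6 CPM in CHEMO FO 20 and at most 2.79 CPM in the other CHEMO FO samples; it was 0.23 without CHEMO FO 20 and 0.31 by DESeq2. The call of Angptl4 was lost without CHEMO FO 17, CHEMO FO 18 or TUMOUR STD 11, in turn, and by limma voom (0.71). That of Pnpla3 was lost also without TUMOUR STD 9, 11 or 12.

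Among 13 tested transcription factors of adipogenesis, only Cebpa, which maintains the mature fat cell together with Pparg, followed Adipoq (rho = 0.77; 1 of 13 reached 0.5, median -0.01). Cebpa ran from 2.00 to 12.6 CPM and was highest in CHEMO FO 20 and CHEMO STD 7. None of the 13 was called for CHEMO STD versus TUMOUR STD or for CHEMO FO versus CHEMO STD by edgeR, and none had an unadjusted p below 0.05 there. Versus TUMOUR STD, 2 of the 13 were called, against 3.6% of all genes tested. They were the early factors Cebpd (1.60, SE 0.51, edgeR adjusted p = 0.486) and Cebpb (0.74, SE 0.31, edgeR adjusted p = 0.524), both higher in CHEMO FO. In this comparison 7 factors were fitted higher and 6 lower, with a median log2 fold change of 0.10. An unadjusted edgeR p below 0.05 was found for 4. Ebf1 and Ebf2 had lower means in CHEMO FO (15.3 and 12.1 CPM) than in TUMOUR STD (19.5 and 17.4 CPM). Cebpd was at 4.52 to 14.4 CPM in TUMOUR STD and at 10.2 to 92.2 CPM in CHEMO FO, where CHEMO FO 18 was highest. The call of Cebpd held without each library in turn, with 0.99 as the lowest value, and that of Cebpb was lost without any 1 of 5 libraries (TUMOUR STD 8, 9 or 11, CHEMO FO 17 or 18). Those with the highest mean CPM were Srebf1 (rho = 0.34), Rxra (0.43), Klf15 (-0.34) and Ppargc1a (-0.11). Of 7 brown fat genes, only Cox8b was tested and it was not called, the uncoupling protein Ucp1 had no count, and the other 5 reached at most 2.29 CPM.

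Receptors for the adipocyte hormones were detected in every sample except that of leptin, Lepr, which ran from 0 to 3.50 CPM. Of 9 receptor genes, 7 were tested, and none was called by edgeR in any comparison, with none at an unadjusted p below 0.05. The adiponectin receptors Adipor1 and Adipor2 kept within 193 to 314 CPM and 136 to 196 CPM, Cdh13 (T-cadherin, an adiponectin binding protein) within 37.6 to 136 CPM and the insulin receptor Insr within 61.8 to 107.6 CPM. Adipor2 had a rho of -0.62 with Adipoq. Of 9 tested markers of the fibro-adipogenic progenitors from which fat in muscle can form, 1 was called: Hic1 was lower in CHEMO STD (-0.93, SE 0.36) and in CHEMO FO (-0.90, SE 0.34) than in TUMOUR STD, with edgeR adjusted p values of 0.719 and 0.486, and both calls were lost without TUMOUR STD 12 (the second also by limma voom, -0.56). Of all genes tested, 2.38% and 3.6% were called in these 2 comparisons. Of the 9 markers, 7 were fitted lower in CHEMO STD and 8 in CHEMO FO. Their median log2 fold changes were -0.22 and -0.50, against -0.002 and 0.002 over all genes. An unadjusted edgeR p below 0.05 was found for 2 and 3 of them. Summed levels were 1400 and 1323 CPM in TUMOUR STD 10 and 12, against 656 to 831 CPM in the other TUMOUR STD samples. Pdgfra, the defining marker, was at 42.9 to 106 CPM in all samples and was not called, nor were Dcn, Cd34 and Lum.

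Markers of neighbouring tissues were examined beside the members. Mbp, a myelin gene, was lower in CHEMO FO than in CHEMO STD (-1.12 on the log2 scale), and so was Prx (-0.82), and neither was called by limma voom, where Mbp was at -0.44. With 1 library left out in turn, the call of Mbp was lost in 0 of 20 fits and that of Prx in 7 of 20, among them without CHEMO STD 1 or 7. Prx was also called lower than in TUMOUR STD, a call lost in 11 of 20 such fits, among them without TUMOUR STD 10. The tendon genes Fmod and Thbs4 were lower in CHEMO STD, and Fmod and Tnmd in CHEMO FO, than in TUMOUR STD, and the keratinocyte genes Dsp and Sbsn were lower in both. Each of these calls was lost without TUMOUR STD 10, except that of Tnmd, which was lost without TUMOUR STD 12. Those of Fmod and Thbs4 were also lost without TUMOUR STD 12, that of Fmod in CHEMO STD in 7 of 20 fits in all, and that of Sbsn in CHEMO FO in 11 of 17. Of 7 macrophage genes, Lyz2 was higher in CHEMO STD than in either other group, calls lost without CHEMO STD 7, and Cd163 was higher in CHEMO FO than in TUMOUR STD, a call lost without CHEMO FO 18. The call of Cd163 was lost by DESeq2 too (0.34). No endothelial and no fast fibre gene was called by edgeR.

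A last comparison set each member against Adipoq within the sample and asked which changed relative to it. This was chosen after the levels had been seen, and such ratios are compared between samples, not read as relative amounts of the genes. In the edgeR fit with the log2 Adipoq level of the sample as a covariate, 2.65%, 1.18% and 2.73% of all genes were called in the 3 comparisons, in the order above. Relative to TUMOUR STD, Cidec was called higher in CHEMO STD (0.72, SE 0.33, interval 0.04 to 1.39, unadjusted p = 0.0347, adjusted p = 0.646) and in CHEMO FO (1.16, SE 0.32, interval 0.50 to 1.81, unadjusted p = 0.00133, adjusted p = 0.57). Retn was called higher in CHEMO FO than in TUMOUR STD (1.22, SE 0.55, unadjusted p = 0.0329, adjusted p = 0.642). Cfd in the same comparison had a smaller unadjusted p of 0.0192 (adjusted p = 0.628) but missed the fold of 1.5, at 0.45 (SE 0.17, interval 0.09 to 0.81). None of the 8 members was called for CHEMO FO versus CHEMO STD, where Cidec differed by 0.44 (SE 0.29) and Lep by 0.61 (SE 0.40). None passed an adjusted p of 0.05 in any comparison. The call of Cidec versus TUMOUR STD held for CHEMO FO in 21 of 21 fits that kept all libraries or left 1 out (1.03 to 1.23). For CHEMO STD it held in 16 of 21 (0.63 to 0.88) and was lost without TUMOUR STD 8, 9 or 12 or CHEMO STD 1 or 3. That of Retn held in 17 of 20 fits and was lost without TUMOUR STD 8 or 12 or CHEMO FO 18.

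The ratio of Cidec to Adipoq shows the values behind this. It was 0.16, 0.06, 0.182, 0.151 and 0.122 in TUMOUR STD 8 to 12. In CHEMO STD 1+2 and 3 to 7 it was 0.358, 0.25, 0.21, 0.147, 0.133 and 0.231, and in CHEMO FO 13 to 20 it was 0.324, 0.303, 0.75, 0.422, 0.125, 0.136, 0.208 and 0.402. All 5 TUMOUR STD samples were at or below 0.182, as were 2 of 6 CHEMO STD and 2 of 8 CHEMO FO samples, so the groups overlap at the lower end. The highest ratio, in CHEMO FO 15, rested on 9 counts of Cidec and 12 of Adipoq, and the lowest, in TUMOUR STD 9, on 3 and 50. On the log2 scale with a prior count of 2, the mean ratio was 1.06 higher in CHEMO FO than in TUMOUR STD (two-sided exact permutation p = 0.00855), and that of CHEMO STD exceeded TUMOUR STD by 0.57 (exact permutation p = 0.0346). CHEMO FO and CHEMO STD differed by 0.49 (exact permutation p = 0.158). With 1 sample left out in turn, the difference between CHEMO STD and TUMOUR STD stayed between 0.45 and 0.67 and missed 0.05 without CHEMO STD 3, 4 or 7 or TUMOUR STD 8, 9 or 12, and that between CHEMO FO and TUMOUR STD stayed between 0.88 and 1.19 and passed each time. These were 3 of 24 such tests over 8 members, with unadjusted p values. Of the other 21, none had a p below 0.05, and the lowest was that of Plin1, whose ratio was 0.61 lower in CHEMO FO than in TUMOUR STD (exact permutation p = 0.0552). Plin1 and Cidec, both droplet proteins, had ratios to Adipoq that differed from TUMOUR STD in opposite directions, of which only that of Cidec passed 0.05.

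**Figure D5:**
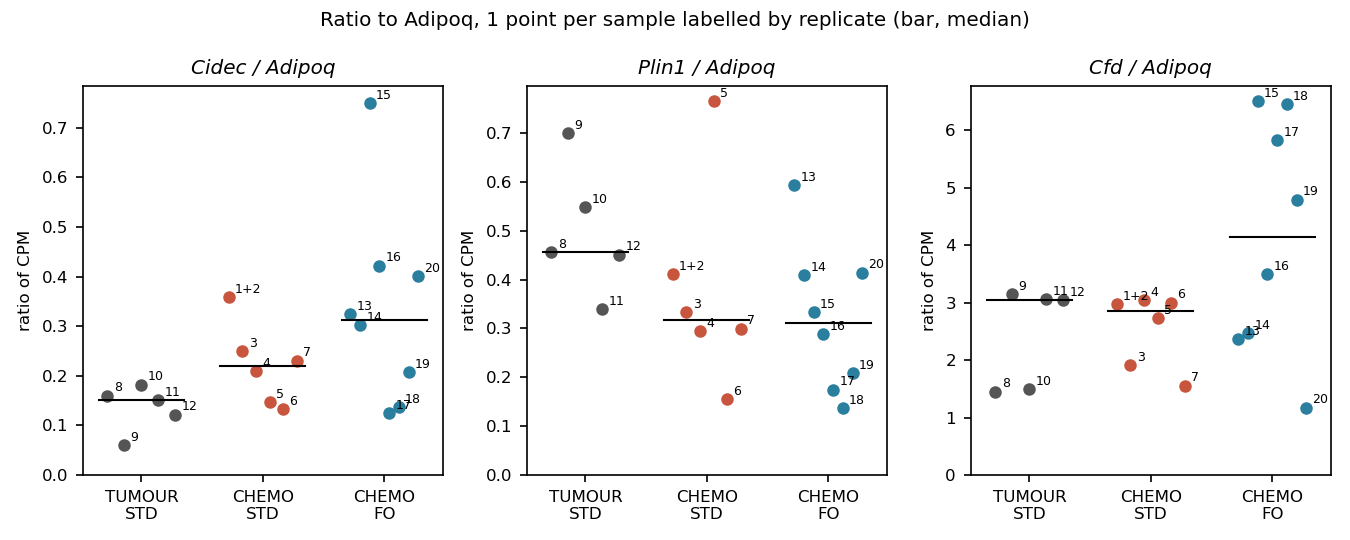
Ratio of the CPM of Cidec, Plin1 and Cfd to that of Adipoq, 1 point per sample labelled with its replicate number and the median of each group as a bar. All TUMOUR STD samples lie at or below a Cidec ratio of 0.182, while 4 of 6 CHEMO STD and 6 of 8 CHEMO FO samples lie above it.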

How the data were processed

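RNA was measured in 20 gastrocnemius libraries, deposited by the authors as raw counts per gene for every library in a single table. Per the submitters' processing notes and the methods, reads were handled with CASAVA 1.9, Trim Galore 0.4.1 and FastQC 0.11.4, aligned with TopHat2 2.0.10 and Bowtie2 to the rat genome Rnor 6 and counted per Ensembl gene in Partek Flow; how strand and multi-mapping reads were handled is not given in the sources used here. Rows with no gene name (388, with 0.102 to 0.272% of the counts of a library) were left out. From 32495 named rows, edgeR 4.0.16 (R 4.3.3; TMM, filterByExpr, quasi-likelihood) tested 11716 genes in 1 fit of 19 samples. A call, after the study's thresholds, was an unadjusted p below 0.05 with at least 1.5-fold change; adjusted p values are Benjamini-Hochberg over all genes tested. DESeq2 1.42.0 and limma 3.58.1 were alternatives. Exact permutation tests used log2 CPM with a prior count of 2. Correlations used log2 levels minus the group mean. The pipeline was tested on simulated data.

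Named were all members, the called and the 4 genes of highest mean CPM of each list, and the 10 genes nearest to Adipoq by Spearman rho; for the marker lists of other tissues the 4 of highest mean CPM are covered by sums. The members and lists were chosen with earlier results of these data known. The fit with Adipoq as a covariate and the ratios to Adipoq were added after the data were seen. Library totals were 3020821 to 10857477 counts, and limits at 0 counts (3 counts of the total) cover counting error only. Some marker results are not reported here.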

Additional observations from a re-analysis of the deposited data

Results flagged for a closer look

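Among 27 sets of values (9 members in 3 groups), 10 values lay apart from the rest of their group by the gap to the nearest sample relative to the range of the group. The gaps were taken on CPM and not on log levels, and most of these genes spread widely between rats. How often such gaps arise by chance in values spread like these was not tested. CHEMO STD 7 held 7 of them: Adipoq at 120.2 CPM, Plin1 at 36.0 CPM, Fabp4 at 158.9 CPM, Lep at 29.5 CPM, Cfd at 187.1 CPM, Cidec at 27.7 CPM and Retn at 11.4 CPM. CHEMO FO 20 held Cidec at 33.8 CPM and Retn at 13.5 CPM, and TUMOUR STD 10 held Retn at 3.11 CPM. Apart from Fabp4, these members rise and fall together between rats, so their values in CHEMO STD 7 are not separate events. Fabp4 did not follow Adipoq over the 19 samples (rho = 0.15). CHEMO STD 7 also had the highest lymphocyte sum (62.7 CPM) and TUMOUR STD 10 the highest keratinocyte sum (572 CPM), whereas CHEMO FO 20 had 0.936 and 5.08 CPM of these. The part of these markers in the adipocyte values was not tested.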

How the results depend on the processing

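No paired analysis was possible because the groups share no replicate numbers. Beyond the 0 members called, 1 was called with no filter on low counts in each comparison of CHEMO FO (Pnpla2). Of the further adipocyte genes, 1 was called by DESeq2 and 1 by limma voom in CHEMO FO versus CHEMO STD, and 1 by voom versus TUMOUR STD. By voom, CHEMO FO versus CHEMO STD turned to 0.71 for Lep, 0.20 for Cfd and 0.17 for Lipe, and CHEMO FO versus TUMOUR STD to 0.36 for Adipoq and 1.60 for Lep. Without CHEMO STD 1 and 2, Lipe turned to 0.086. Pparg in CHEMO FO versus TUMOUR STD, at 0.00, took small positive values: 0.0145 by DESeq2, by RLE factors (0.0140), with library totals (0.0117), with CHEMO STD 1 and 2 apart (0.0130) or left out (0.0126), 0.0060 with no filter, 0.0021 with only the groups compared and 0.066 by voom. With library totals, rho with the endothelial sum turned to -0.27 for Adipoq, -0.20 for Plin1, 0.037 for Fabp4, -0.20 for Lep, -0.16 for Cfd, -0.26 for Cidec and 0.063 for Pnpla2, and rho of Pparg with Adipoq was 0.55 (adjusted permutation p = 0.068). Without the 2 farthest samples rho with Adipoq was -0.19 for Fabp4 and 0.067 for Pnpla2.

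With 1 library left out in turn, log2 fold changes of CHEMO STD versus TUMOUR STD ranged from -0.78 to 0.99 for Adipoq, -1.10 to 0.55 for Plin1, -1.93 to 1.19 for Lep, -0.21 to 0.87 for Cfd, -0.033 to 1.81 for Cidec and 0.64 to 2.49 for Retn. Those of CHEMO FO versus CHEMO STD ranged from -1.34 to 0.67 for Adipoq, -1.04 to 0.74 for Plin1, -0.31 to 0.065 for Fabp4, -1.61 to 1.81 for Lep, -0.58 to 0.38 for Cfd, -0.99 to 1.07 for Cidec, -0.14 to 0.15 for Lipe and -0.37 to 0.71 for Retn. Those of CHEMO FO versus TUMOUR STD ranged from -0.93 to 0.49 for Adipoq, -1.22 to 0.37 for Plin1, -0.98 to 0.45 for Lep, -0.060 to 0.52 for Cfd, -0.021 to 1.89 for Cidec, -0.19 to 0.13 for Pparg and 1.09 to 2.33 for Retn. Members called ranged from 0 to 1 against TUMOUR STD for either group and further adipocyte genes from 0 to 1 (chemotherapy effect) and 0 to 2 (diet effect). With Adipoq as a covariate, members called ranged from 0 to 2, 0 to 1 and 1 to 3 in the 3 comparisons, and Retn in CHEMO FO versus CHEMO STD from -0.071 to 0.22. Permutation tests below 0.05 ranged from 0 to 1 for levels (chemotherapy effect), and from 0 to 2, 0 to 1 and 1 to 2 for ratios. Depth limits the low values of Lep and Retn most, which rest on 1 count in some libraries, and those of Cidec, with 3 counts in TUMOUR STD 9.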
